A study of Mus musculus with 9 samples.

Results

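The genes described here encode 8 secreted ligands of the TGF-beta superfamily: Nodal, Gdf3, Lefty1, Lefty2, Tgfb1, Tgfb2, Tgfb3 and Inhba. They were taken by gene symbol from a table of 54532 mouse genes measured in 9 RNA libraries of cells sorted from neural tube organoids. The genes were chosen with earlier results of these data known. All 8 were found in the table, and 7 passed the filter on low counts. Inhba did not.

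Nodal and its relative Gdf3 signal through activin receptors, and the signal runs through Smad2, Smad3 and the DNA-binding partner Foxh1. Nodal needs an EGF-CFC co-receptor such as Tdgf1 or Cfc1. Lefty1 and Lefty2 are secreted antagonists that are themselves switched on by Nodal signalling, so the pathway carries its own brake. In the mouse embryo Nodal is known for the maintenance of the epiblast, for mesoderm and endoderm formation and for left-right asymmetry, where Lefty1 is expressed in the prospective floor plate. Tgfb1, Tgfb2 and Tgfb3 encode the TGF-beta ligands, which are secreted in a latent form and bind Tgfbr1 and Tgfbr2, and Inhba encodes the subunit of activin A.

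The organoids were grown clonally in Matrigel from R1 mouse embryonic stem cells, 1 line of FoxA2-Venus genotype that all groups shared. Its fluorescent reporter marks Foxa2, a transcription factor of the floor plate and of endoderm. In the first group (SAG GFP+), GFP+ cells came from N2B27 medium to which SAG had been added, a compound that activates Smoothened and with it hedgehog signalling. The next group held GFP+ cells from N2B27 medium with all-trans retinoic acid (RA GFP+), and the last held GFP- cells from the same kind of RA medium (RA GFP-). Each group had 3 biological replicates. The medium was replaced on day 2, and cells were sorted through a GFP filter set for high or low fluorescence and lysed for RNA 66 hours later. Sources differ on the retinoic acid dose, 250 nM by the design text but 250 µM by the protocol on treatment, and the dose of SAG is not stated. SAG medium is named in the sample titles alone, so whether it also held retinoic acid is not stated. Since GFP- cells from SAG medium are not analysed here, the effect of the sort was measured under RA only. The questions addressed were how the ligand genes differ between Foxa2-high and Foxa2-low cells under RA, and between the 2 kinds of medium within Foxa2-high cells.

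Library totals ran from 25281871 to 29763765 counts. Levels per library are given in CPM, counts scaled to library size. Foxa2 had 326, 212 and 205 CPM in SAG GFP+ libraries, 184, 157 and 133 CPM in RA GFP+ libraries and 2.47, 1.33 and 2.51 CPM in RA GFP- libraries. The sort thus separated the RA libraries as labelled. Summed floor plate markers reached 1312 to 2020 CPM in SAG GFP+, 1025 to 1467 CPM in RA GFP+ and 264 to 314 CPM in RA GFP- libraries. Of 8 floor plate markers tested, 8 were higher in RA GFP+ than in RA GFP- cells. In SAG GFP+ cells 2 were higher and 3 lower than in RA GFP+ cells, and 7 higher and 0 lower than in RA GFP- cells. Naive pluripotency markers summed to 12.8 to 23.4 CPM in SAG GFP+, 66.3 to 69.2 CPM in RA GFP+ and 463 to 622 CPM in RA GFP- libraries. Neural progenitor and neuron markers, which define the labelled tissue, were present in all groups. They summed to 831 to 946 CPM in SAG GFP+, 158 to 245 CPM in RA GFP+ and 680 to 952 CPM in RA GFP- libraries. Of 7 neural markers tested, 7 were lower in RA GFP+ than in RA GFP- cells. In SAG GFP+ cells 6 were higher and 1 lower than in RA GFP+ cells, and 2 higher and 2 lower than in RA GFP- cells. One library stood apart within its group. SAG GFP+ replicate 1 had 110 CPM of the mesoderm gene T (Brachyury) and 11.9 CPM of Mixl1, against 7.94 and 9.81 CPM of T and 0.262 and 0.0389 CPM of Mixl1 in SAG GFP+ replicates 2 and 3. For genes named below, called fold changes that moved by over 1.5 times without this library are given with and without it. SAG GFP+ replicates 2 and 3 had 2020 and 1935 CPM of floor plate markers and 15.4 and 12.8 CPM of naive pluripotency markers. They had 921 and 946 CPM of neural markers, and the other marker sums that replicate 1 set are given below without it.

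Lefty1 and Lefty2 are neighbouring genes on chromosome 1, and their coding sequences of 1104 bases each were identical at 1014 positions (91.8%). Of all 50-base words in Lefty1 transcripts, 17.9% also occurred in Lefty2, and 12.0% of those in Lefty2 occurred in Lefty1, while Nodal, Tgfb2 and Tgfb3 shared none with any other gene. How reads that fit both genes were counted is not given in the sources used here, so values of the 2 Lefty genes are uncertain to that extent. The stretches below show how far reads can tell them apart (GRCm38, plus strand, read from the annotated transcripts). From base 272 to base 331 of the coding sequence, 60 bases were the same in both genes, at chr1:180936568-180936627 in Lefty1 and at chr1:180894156-180894215 in Lefty2. From base 34 to base 93, 18 of 60 bases differed, and capitals mark them, at chr1:180935143-180935202 in Lefty1 and at chr1:180893217-180893276 in Lefty2.
Lefty1 and Lefty2, bases 272 to 331: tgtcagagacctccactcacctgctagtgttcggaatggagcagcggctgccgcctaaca
Lefty1, bases 34 to 93: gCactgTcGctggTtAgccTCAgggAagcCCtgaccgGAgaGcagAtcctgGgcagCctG
Lefty2, bases 34 to 93: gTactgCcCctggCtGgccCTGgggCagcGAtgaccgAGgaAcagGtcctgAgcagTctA

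Per kilobase of exon, Lefty1 had the highest mean level of the 8 genes in every group, at 5.59 ± 3.39 CPM in SAG GFP+, 39.0 ± 23.2 CPM in RA GFP+ and 22.4 ± 15.9 CPM in RA GFP- cells (SD, n = 3 each). In SAG GFP+ cells it was followed by Tgfb3 (1.88 ± 0.444), Nodal (1.72 ± 1.95), Tgfb2 (1.65 ± 0.248), Gdf3 (0.78 ± 0.498), Lefty2 (0.548 ± 0.669) and Tgfb1 (0.351 ± 0.108). In RA GFP+ cells the order after Lefty1 was Lefty2 (16.0 ± 8.65), Nodal (7.78 ± 3.32), Gdf3 (2.56 ± 1.36), Tgfb2 (2.18 ± 0.755), Tgfb3 (1.7 ± 0.426) and Tgfb1 (1.55 ± 0.351). In RA GFP- cells it was Nodal (17.3 ± 6.73), Gdf3 (16.8 ± 6.19), Lefty2 (8.3 ± 4.04), Tgfb3 (1.35 ± 0.262), Tgfb1 (1.15 ± 0.282) and Tgfb2 (0.797 ± 0.211). The ranges of mean ± SD overlapped between neighbours in these orders with 3 exceptions, which lay between Tgfb2 and Gdf3 in SAG GFP+ cells, between Nodal and Gdf3 in RA GFP+ cells, and between Lefty2 and Tgfb3 in RA GFP- cells. The Nodal and Lefty genes thus stood above the 3 TGF-beta genes under RA, while in SAG GFP+ cells Nodal and Lefty2 lay among them.

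**Figure D1:**
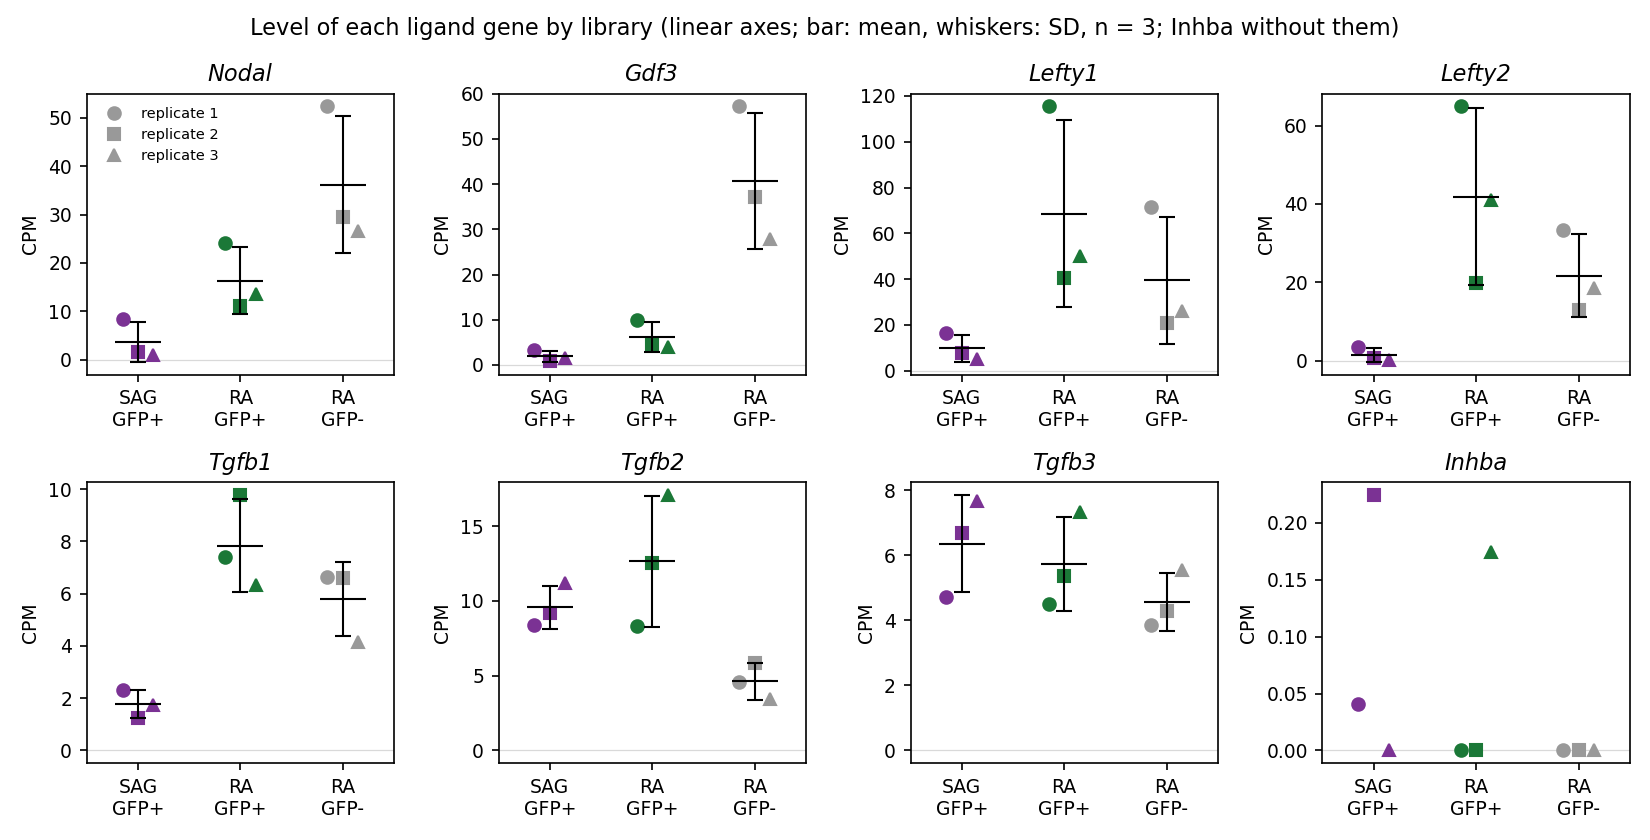
CPM (linear axes) of the 8 ligand genes in SAG GFP+, RA GFP+ and RA GFP- libraries; each symbol is 1 library, the bar the mean and the whiskers the SD (n = 3), both left out for Inhba. Nodal and Gdf3 were lowest in SAG GFP+ and highest in RA GFP- libraries, both Lefty genes and Tgfb1 were lowest in SAG GFP+ libraries, and Tgfb2 was lowest in RA GFP- libraries.

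In the comparison of RA GFP+ with RA GFP- cells, 1 of the 7 tested ligand genes was higher (Tgfb2) and 1 was lower (Gdf3) by edgeR's quasi-likelihood test at an adjusted p under 0.05. Of all 16772 tested genes 8.49% were higher and 8.43% lower. Same-numbered RA libraries deviated together from their group means. With the replicate number as a block in the 6 RA libraries 3 ligand genes were higher (Lefty1, Lefty2 and Tgfb2) and 2 were lower (Nodal and Gdf3), beside 16.1% of 16257 genes higher and 16.1% lower. In the comparison of SAG GFP+ with RA GFP+ cells, 5 of 7 were lower (Nodal, Lefty1, Lefty2, Gdf3 and Tgfb1) and 0 were higher, where 14.8% of tested genes were lower and 9.78% higher. With an unadjusted p under 0.05, again 5 passed, beside 6175 of all 16772 tested genes. DESeq2 called 0 of them higher and 5 lower, beside 1944 genes higher and 2876 lower in all. In the comparison of SAG GFP+ with RA GFP- cells, the same 5 were lower and Tgfb2 was higher, where 16.5% of tested genes were lower and 12.0% higher. The median log2 fold change of the 7 genes was 0.435 for RA GFP+ against RA GFP-, -2.146 for SAG GFP+ against RA GFP+ and -2.008 for SAG GFP+ against RA GFP-. The medians over all tested genes were -0.018, -0.017 and -0.009. These comparisons share groups, so their values stand side by side and are not independent of each other.

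Nodal (ENSMUSG00000037171, chromosome 10, 61417972 to 61425338, plus strand, GRCm38) had 8.31, 1.498 and 1.01 CPM in SAG GFP+ libraries, 24.2, 11.1 and 13.6 CPM in RA GFP+ libraries and 52.4, 29.6 and 26.7 CPM in RA GFP- libraries. The 3 groups did not overlap, and replicate 1 was the highest library of each group. In RA GFP+ against RA GFP- cells its log2 fold change was -1.16 ± 0.594 (SE), with an edgeR adjusted p of 0.225, which is no call. With the replicate block in the 6 RA libraries it was -1.17 ± 0.129 (edgeR adjusted p = 8.54e-05), and the 3 pairs of same-numbered libraries differed by -1.12, -1.42 and -0.97 on the log2 scale. Within each replicate number the GFP+ library was the lower. Over all alternatives tried the adjusted p of Nodal in this comparison ran from 8.54e-05 to 0.527. The bulk libraries cannot tell fewer Nodal-expressing cells from less Nodal RNA per cell.

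Nodal was lower in SAG GFP+ than in RA GFP+ cells, with a log2 fold change of -2.18 ± 0.636 (edgeR adjusted p = 0.0271, 0.221-fold). It was also lower than in RA GFP- cells, by -3.33 ± 0.656 (adjusted p = 0.00291, 0.0991-fold). Without SAG GFP+ replicate 1 the fold changes were -3.67 (adjusted p = 0.000237) and -4.82 (adjusted p = 4.25e-05). The call against RA GFP+ ended when RA GFP+ replicate 1 (adjusted p = 0.0955) or SAG GFP+ replicate 2 (0.0962) or 3 (0.0773) was left out, and in a fit of these 2 groups alone (0.0519). Over all alternatives the adjusted p ran from 5.05e-09 to 0.0962 against RA GFP+ cells and from 4.28e-16 to 0.0139 against RA GFP- cells.

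Gdf3 (ENSMUSG00000030117, chromosome 6, 122605403 to 122610087, minus strand) is a Nodal-related ligand known from pluripotent cells. It had 3.26, 0.974 and 1.44 CPM in SAG GFP+ libraries, 9.99, 4.67 and 3.98 CPM in RA GFP+ libraries and 57.2, 37.2 and 27.8 CPM in RA GFP- libraries. The groups were separate, and most of the distance lay between the GFP- libraries and the others. Gdf3 was lower in RA GFP+ than in RA GFP- cells, with a log2 fold change of -2.72 ± 0.452 (edgeR adjusted p = 0.00179, 6.57-fold lower), and the 3 pairs gave -2.52, -2.99 and -2.81. It was lower again in SAG GFP+ than in RA GFP+ cells (-1.72 ± 0.473, adjusted p = 0.0206) and than in RA GFP- cells (-4.43 ± 0.501, adjusted p = 7.28e-05). Leaving out RA GFP+ replicate 1 (adjusted p = 0.0931) or SAG GFP+ replicate 2 (0.0827) or 3 (0.0809) ended the call against RA GFP+. Without SAG GFP+ replicate 1 the fold changes were -2.33 (adjusted p = 0.00499) and -5.05 (adjusted p = 5.41e-05), and over all alternatives the adjusted p ran from 8.63e-07 to 0.0931 and from 1.87e-24 to 0.000753. Naive pluripotency markers moved with Gdf3. Of 8 tested, 6 were lower in RA GFP+ than in RA GFP- cells, 5 were lower in SAG GFP+ than in RA GFP+ cells, and 8 were lower in SAG GFP+ than in RA GFP- cells. Core and primed pluripotency markers summed to 584 to 938 CPM in SAG GFP+, 416 to 440.2 CPM in RA GFP+ and 1006 to 1469 CPM in RA GFP- libraries, and SAG GFP+ libraries other than replicate 1 had 608 and 584 CPM. Of 7 tested, 0 were higher and 5 lower in RA GFP+ than in RA GFP- cells, and 1 was higher and 4 lower in SAG GFP+ than in RA GFP- cells. In SAG GFP+ against RA GFP+ cells 3 were higher and 1 was lower, while Nodal and Gdf3 were lower there. The part of such cells in the Nodal and Gdf3 values was not tested.

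**Figure D2:**
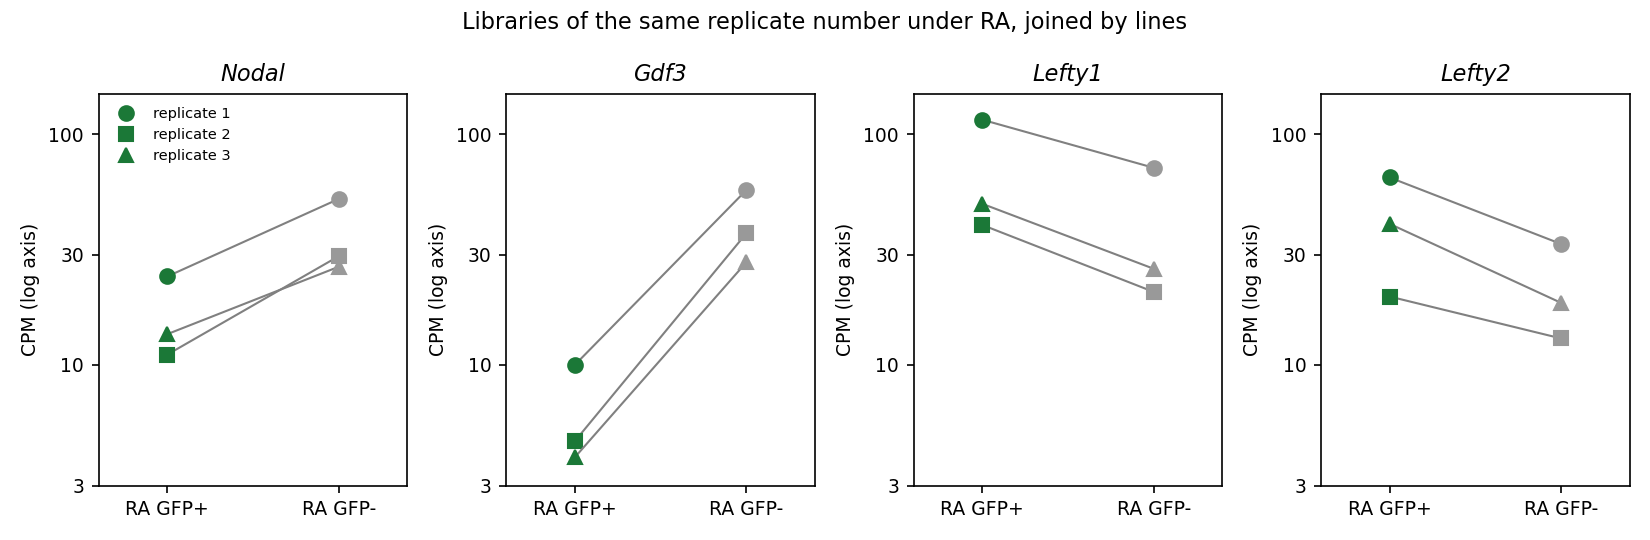
CPM (log axis) of Nodal, Gdf3, Lefty1 and Lefty2 in the RA GFP+ libraries (left) and RA GFP- libraries (right); each symbol is 1 library and each line joins libraries of the same replicate number. In all 3 pairs the RA GFP+ library had less Nodal and Gdf3 and more Lefty1 and Lefty2 than its RA GFP- partner, and replicate 1 was the highest library of its group for each gene.

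Lefty1 (ENSMUSG00000038793, chromosome 1, 180935022 to 180938400, plus strand) had 16.5, 7.79 and 5.14 CPM in SAG GFP+ libraries, 116, 40.4 and 49.9 CPM in RA GFP+ libraries and 71.5, 20.7 and 26.1 CPM in RA GFP- libraries. SAG GFP+ libraries were below all others, and the RA groups overlapped through replicate 1 of RA GFP-. In RA GFP+ against RA GFP- cells the log2 fold change was 0.80 ± 0.532 (edgeR adjusted p = 0.359, no call). With the replicate block it was 0.86 ± 0.104 (edgeR adjusted p = 0.000155), and the pairs gave 0.69, 0.96 and 0.94. Lefty1 was lower in SAG GFP+ than in RA GFP+ cells, by -2.81 ± 0.573 (adjusted p = 0.00423), and than in RA GFP- cells, by -2.01 ± 0.559 (adjusted p = 0.0198). Without RA GFP+ replicate 1 the fold change of SAG GFP+ against RA GFP+ was -2.2 (adjusted p = 0.0157). The call against RA GFP- ended when RA GFP- replicate 1 (-1.24, adjusted p = 0.11) or SAG GFP+ replicate 2 (0.075) or 3 (0.0781) was left out. Over all alternatives the adjusted p ran from 0.000155 to 0.863 between the RA groups, from 1.99e-16 to 0.024 against RA GFP+ and from 2.3e-10 to 0.11 against RA GFP-.

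Lefty2 (ENSMUSG00000066652, chromosome 1, 180893108 to 180899103, plus strand) had 3.42, 0.712 and 0.156 CPM in SAG GFP+ libraries, 64.9, 19.8 and 40.9 CPM in RA GFP+ libraries and 33.4, 13.0 and 18.6 CPM in RA GFP- libraries. Every SAG GFP+ library was far below every RA library, and the RA groups overlapped. Lefty2 had the largest fall of the 7 ligand genes between SAG GFP+ and RA GFP+ cells, with a log2 fold change of -4.88 ± 0.776 (edgeR adjusted p = 0.00088, 0.0339-fold). Against RA GFP- cells it was -3.94 ± 0.755 (adjusted p = 0.00248). Without SAG GFP+ replicate 1 these became -6.55 (adjusted p = 0.000138) and -5.6 (adjusted p = 0.000278). In RA GFP+ against RA GFP- cells it was 0.95 ± 0.632 (edgeR adjusted p = 0.359, no call). With the replicate block it was 0.90 ± 0.13 (edgeR adjusted p = 0.000492), with pairs at 0.96, 0.6 and 1.14. Over all alternatives the adjusted p ran from 0.000492 to 0.728 between the RA groups, from 5.54e-23 to 0.00617 against RA GFP+ and from 4.67e-18 to 0.0148 against RA GFP-. Both Lefty genes are also known from definitive endoderm precursors, and endoderm markers summed to 8.39 to 32.3 CPM in SAG GFP+, 107 to 165 CPM in RA GFP+ and 18.3 to 23.7 CPM in RA GFP- libraries. Without replicate 1 the SAG GFP+ libraries had 8.39 and 15.8 CPM. Of the 7 tested endoderm markers 6 were higher in RA GFP+ than in RA GFP- cells and 5 were lower in SAG GFP+ than in RA GFP+ cells, and 0 were higher and 2 lower in SAG GFP+ than in RA GFP- cells. Afp had 0 counts in the SAG GFP+ and RA GFP- groups, Ttr had 0 in RA GFP- and Apoa1 had 0 in SAG GFP+. Their part in the Lefty values was not tested.

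Ratios between genes inside a library do not depend on its depth. Per exon base, Lefty1 over Nodal was 2.37, 6.20 and 6.05 in SAG GFP+ libraries, 5.69, 4.34 and 4.38 in RA GFP+ libraries and 1.63, 0.834 and 1.17 in RA GFP- libraries. GFP+ libraries of both media thus held more Lefty1 per Nodal than RA GFP- libraries, with no overlap. The exact two-sided permutation p was 0.1 for RA GFP+ against RA GFP- and for SAG GFP+ against RA GFP-, the smallest that 3 against 3 libraries allow, and 1 for SAG GFP+ against RA GFP+. Lefty2 over Nodal separated the GFP+ groups: it was 0.330, 0.381 and 0.123 in SAG GFP+ libraries, 2.15, 1.43 and 2.41 in RA GFP+ libraries and 0.512, 0.353 and 0.559 in RA GFP- libraries. The exact permutation p was 0.1 for SAG GFP+ against RA GFP+, 0.1 for RA GFP+ against RA GFP- and 0.2 for SAG GFP+ against RA GFP-. Lefty1 over Lefty2 was 7.18, 16.3 and 49.0 in SAG GFP+ libraries, 2.64, 3.03 and 1.82 in RA GFP+ libraries and 3.18, 2.36 and 2.09 in RA GFP- libraries. The SAG GFP+ ratios rest on only 84, 19 and 4 Lefty2 counts. The 2 RA groups held the Lefty genes in a like proportion (exact permutation p = 0.9), and all SAG GFP+ libraries held relatively more Lefty1 (exact permutation p = 0.1 against either). Gdf3 over Nodal was 0.339, 0.562 and 1.23 in SAG GFP+ libraries, 0.357, 0.364 and 0.253 in RA GFP+ libraries and 0.943, 1.08 and 0.903 in RA GFP- libraries. The exact permutation p was 0.1 between the RA groups, 0.3 for SAG GFP+ against RA GFP+ and 0.4 for SAG GFP+ against RA GFP-. For each of these ratios 3 against 3 libraries allow no p below 0.1, so none can pass a threshold of 0.05.

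**Figure D3:**
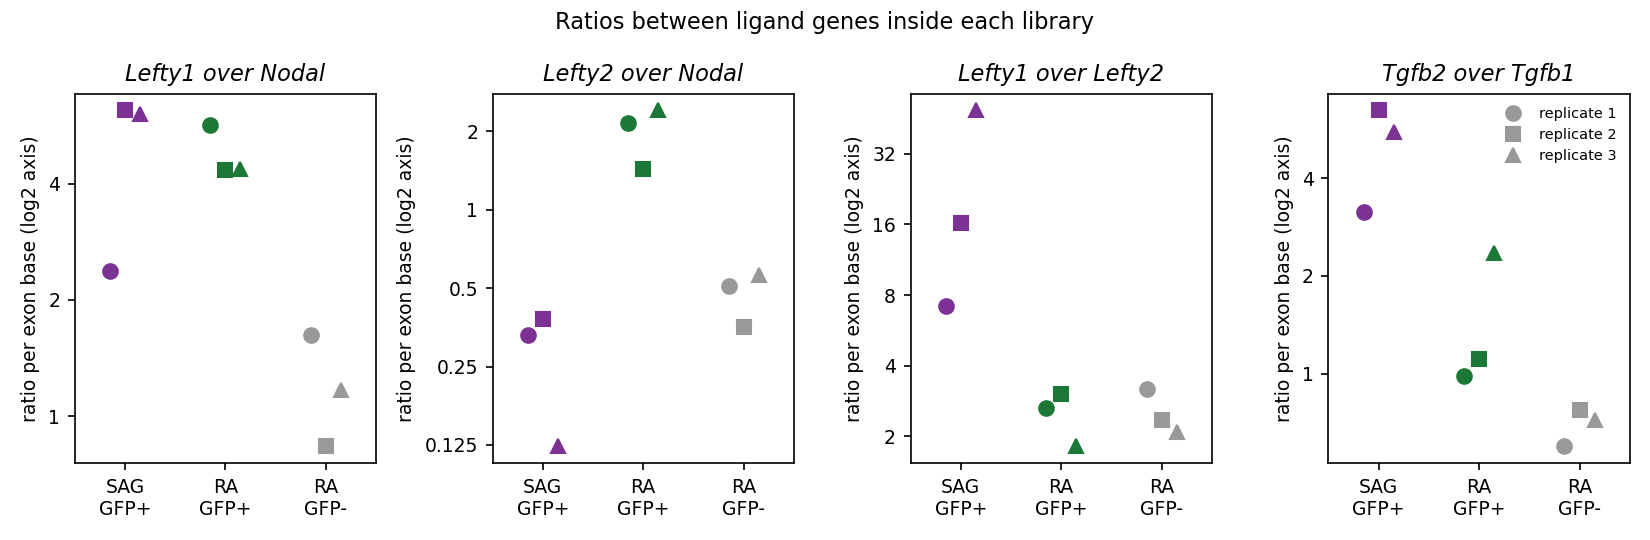
Ratios of Lefty1 over Nodal, Lefty2 over Nodal, Lefty1 over Lefty2 and Tgfb2 over Tgfb1 per exon base (log2 axes) inside each SAG GFP+, RA GFP+ and RA GFP- library; each symbol is 1 library. Lefty2 over Nodal was 1.43 to 2.41 in RA GFP+ libraries and at most 0.559 in the others, and Tgfb2 over Tgfb1 was above 3 in all SAG GFP+ libraries and at most 2.36 in the RA libraries.

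The 3 TGF-beta genes, whose coding sequences were 62.8 to 63.6% identical to each other, showed 3 different patterns. Tgfb1 (ENSMUSG00000002603, chromosome 7, 25687002 to 25705077, plus strand) had 2.32, 1.24 and 1.75 CPM in SAG GFP+ libraries, 7.41, 9.78 and 6.31 CPM in RA GFP+ libraries and 6.64, 6.59 and 4.15 CPM in RA GFP- libraries. All SAG GFP+ libraries were below all RA libraries, and the RA groups overlapped. Tgfb1 was lower in SAG GFP+ than in RA GFP+ cells (log2 fold change -2.15 ± 0.325, edgeR adjusted p = 0.000639) and than in RA GFP- cells (-1.71 ± 0.323, adjusted p = 0.00226). No alternative ended either call. Between RA GFP+ and RA GFP- cells its log2 fold change was 0.44 ± 0.305 (adjusted p = 0.384, no call).

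Tgfb2 (ENSMUSG00000039239, chromosome 1, 186622792 to 186705989, minus strand) had 8.39, 9.18 and 11.2 CPM in SAG GFP+ libraries, 8.35, 12.5 and 17.1 CPM in RA GFP+ libraries and 4.55, 5.87 and 3.43 CPM in RA GFP- libraries. Both GFP+ groups were above RA GFP- without overlap and overlapped with each other. Tgfb2 was higher in RA GFP+ than in RA GFP- cells (log2 fold change 1.45 ± 0.296, edgeR adjusted p = 0.00581, 2.74-fold). It was also higher in SAG GFP+ than in RA GFP- cells (1.05 ± 0.295, adjusted p = 0.0203, 2.08-fold). The second call ended when RA GFP- replicate 1 (adjusted p = 0.0551) or 3 (0.0607) or SAG GFP+ replicate 3 (0.0679) was left out, and all alternatives gave 0.00269 to 0.0679. SAG GFP+ against RA GFP+ gave -0.40 ± 0.288 (adjusted p = 0.344, no call). Tgfb2 over Tgfb1 per exon base was 3.15, 6.46 and 5.55 in SAG GFP+ libraries, 0.981, 1.11 and 2.36 in RA GFP+ libraries and 0.597, 0.775 and 0.719 in RA GFP- libraries. No groups overlapped (exact permutation p = 0.1 in each of the 3 comparisons). Tgfb2 was thus the more abundant of the pair in every SAG GFP+ library and the less abundant in every RA GFP- library. Mesenchyme and mesoderm markers, a further source of TGF-beta ligands in embryos, summed to 40.8 to 137 CPM in SAG GFP+, 48.7 to 73.6 CPM in RA GFP+ and 15.5 to 21.0 CPM in RA GFP- libraries. The upper end in SAG GFP+ was replicate 1, and the others had 40.8 and 49.1 CPM. Of the 9 tested, 5 were higher and 1 lower in RA GFP+ than in RA GFP- cells, 1 was higher and 5 lower in SAG GFP+ than in RA GFP+ cells. In SAG GFP+ against RA GFP- cells 5 were higher and 1 lower, and Tgfb2 was higher there too. Mesp1 had 0 counts in RA GFP+ and Osr1 had 0 in SAG GFP+. Their part in the Tgfb2 values was not tested.

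Tgfb3 (ENSMUSG00000021253, chromosome 12, 86056745 to 86079041, minus strand) had 4.73, 6.71 and 7.67 CPM in SAG GFP+ libraries, 4.51, 5.38 and 7.32 CPM in RA GFP+ libraries and 3.85, 4.31 and 5.56 CPM in RA GFP- libraries. All 3 groups overlapped, and no comparison called it. Its log2 fold changes were 0.33 ± 0.286 for RA GFP+ against RA GFP- (edgeR adjusted p = 0.493), 0.15 ± 0.284 for SAG GFP+ against RA GFP+ (0.74) and 0.48 ± 0.286 for SAG GFP+ against RA GFP- (0.237). Inhba (ENSMUSG00000041324, chromosome 13, 16011851 to 16031621, plus strand) had 1, 6 and 0 counts in SAG GFP+ libraries, 0, 0 and 5 counts in RA GFP+ libraries and 0 in each RA GFP- library. It was not tested, and 3 counts over the RA GFP- group would be 0.0371 CPM. Activin A RNA was therefore near or below the limit of detection in all groups.

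The 250 bases before the annotated start are shown for Nodal and Tgfb2, since these genes took opposite directions between the sorted RA fractions (RefSeq, GRCm38.p6, 5′ to 3′ on the gene's strand). RefSeq promoter windows were at hand for 4 of the 8 genes: Nodal, Tgfb1, Tgfb2 and Inhba. Windows of 300 bases, from 250 before to 50 after the start, were searched on both strands for the FOXH1 motif AATNCACA, the SMAD palindrome GTCTAGAC and the short SMAD motif CAGAC. Among all 32851 promoter windows 3.6%, 0.2% and 49.6% held these motifs. Among the 4, only Tgfb2 held any, with CAGAC 221 and 204 bases before the start, in capitals below. The letters found, or not found, in this window say nothing of binding. The Nodal window had 54.0% and the Tgfb2 window 54.3% G and C bases, against a median of 52.7% over all windows, and that of Tgfb1 had 77.0%.
Nodal, chr10:61417722-61417971, plus strand: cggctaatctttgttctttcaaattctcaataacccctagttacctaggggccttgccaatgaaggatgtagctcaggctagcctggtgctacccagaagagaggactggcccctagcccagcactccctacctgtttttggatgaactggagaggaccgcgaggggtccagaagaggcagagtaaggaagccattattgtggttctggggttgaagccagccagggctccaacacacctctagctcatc
Tgfb2, chr1:186705990-186706239, minus strand: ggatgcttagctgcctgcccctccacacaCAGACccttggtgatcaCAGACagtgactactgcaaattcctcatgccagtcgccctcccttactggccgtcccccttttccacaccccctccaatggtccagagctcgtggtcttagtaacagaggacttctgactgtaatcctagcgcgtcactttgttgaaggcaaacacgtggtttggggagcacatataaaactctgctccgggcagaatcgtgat

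**Figure D4:**
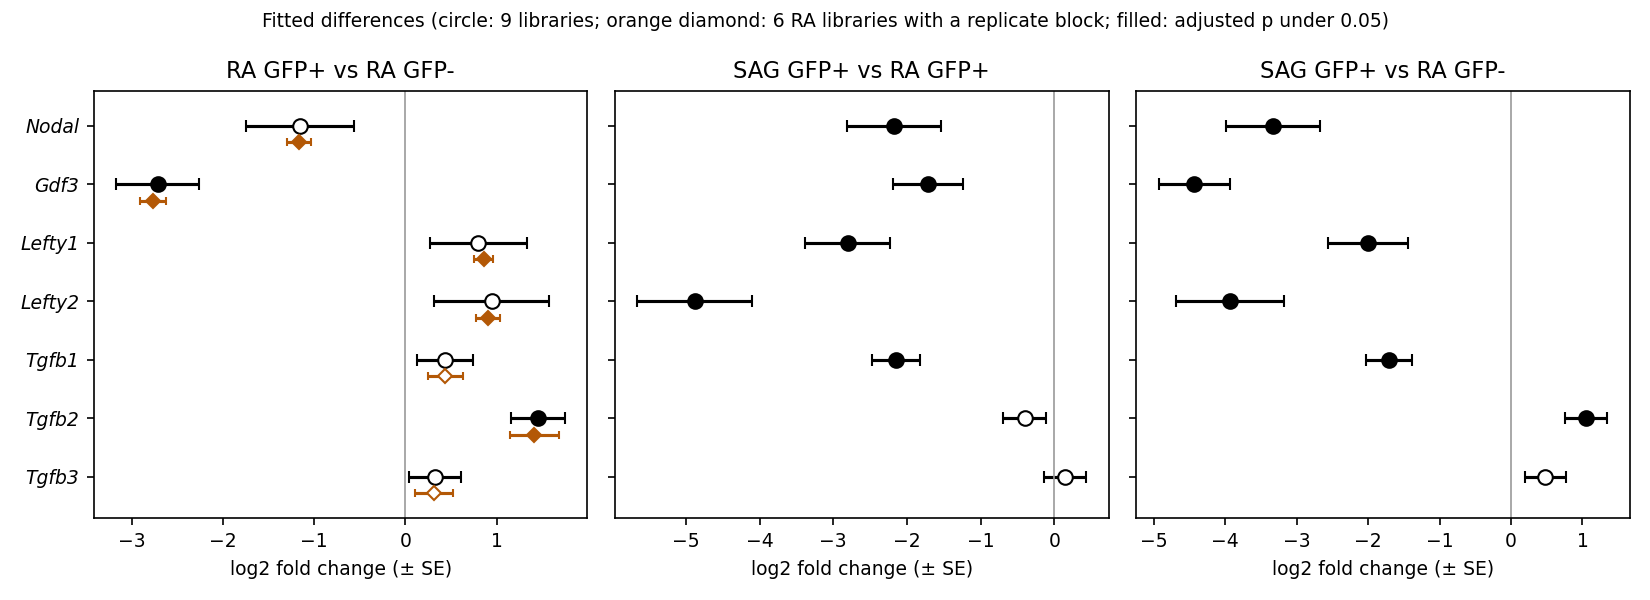
Log2 fold changes (± SE) of the 7 tested ligand genes, the first-named group over the second; circles come from the fit of 9 libraries, orange diamonds from the 6 RA libraries with a replicate block, and filled symbols have an edgeR adjusted p under 0.05. The block left the fold changes of Nodal, Lefty1 and Lefty2 near their first values and shortened their error bars, and Nodal, Gdf3, Lefty1, Lefty2 and Tgfb1 lay left of 0 in both SAG comparisons.

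Around the ligands, 65 further genes of the pathway in 7 lists were followed, and 57 of them were tested. In RA GFP+ against RA GFP- cells 13 were higher and 5 lower (21 higher and 11 lower with the replicate block). In SAG GFP+ against RA GFP+ cells 6 were higher and 19 lower, and in SAG GFP+ against RA GFP- cells 11 were higher and 16 lower. Their median log2 fold changes were 0.201, -0.309 and 0.054, against -0.018, -0.017 and -0.009 over all tested genes. Of all tested genes 8.49% were higher and 8.43% lower in the first comparison (16.1% and 16.1% with the replicate block). The shares were 9.78% higher and 14.8% lower in the second, and 12.0% higher and 16.5% lower in the third. Genes named below outside the rule given in the methods, among them Tgfbr1, Foxh1, Eomes, and Fst and Fstl3 in single comparisons, were chosen after their values were seen.

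Of the 8 other activin and GDF ligands 4 were tested, while Gdf1 and Mstn had 0 counts in all libraries; Gdf1 lies wholly within exons of Cers1. Inhbb, the subunit of activin B, had 1, 1 and 0 counts in SAG GFP+ libraries, 5, 5 and 1 counts in RA GFP+ libraries and 70, 59 and 75 counts in RA GFP- libraries. It was lower in RA GFP+ than in RA GFP- cells (log2 fold change -4.21 ± 0.577, edgeR adjusted p = 0.000562). The CPM ratio of SAG GFP+ over RA GFP- was 0.0103, with an exact 95% interval of 0.00124 to 0.0377 that covers counting error only. Gdf15, a distant relative known from cell stress, was lower in RA GFP+ than in RA GFP- cells (-3.56 ± 0.506, adjusted p = 0.000694). It was also lower in SAG GFP+ than in RA GFP- cells (-4.93 ± 0.575, adjusted p = 9.13e-05). Gdf11 was lower in SAG GFP+ than in RA GFP+ cells (-0.60 ± 0.177, adjusted p = 0.0282). That call ended when RA GFP+ replicate 2 or any 1 SAG GFP+ library was left out (adjusted p 0.0583 to 0.126).

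Tgfbr1, the type I TGF-beta receptor, had 231, 290 and 264 CPM in SAG GFP+, 228, 264 and 247 CPM in RA GFP+ and 152, 212 and 182 CPM in RA GFP- libraries. It was higher in SAG GFP+ than in RA GFP- cells by 0.52 ± 0.139 (edgeR adjusted p = 0.0158, 0.0588 without SAG GFP+ replicate 2). Tdgf1 (Cripto) is the co-receptor that Nodal needs and that pluripotent cells express. It had 20.5, 3.75 and 3.19 CPM in SAG GFP+ libraries, 0.901, 0.370 and 2.72 CPM in RA GFP+ libraries and 130, 47.4 and 80.7 CPM in RA GFP- libraries. RA GFP+ libraries were the lowest and RA GFP- libraries the highest, with no overlap between any of the groups. Tdgf1 was lower in RA GFP+ than in RA GFP- cells (log2 fold change -6.01 ± 0.861, adjusted p = 0.000726, and -7.1 without RA GFP+ replicate 3). It was lower in SAG GFP+ than in RA GFP- cells (-3.24 ± 0.728, adjusted p = 0.00646, and -4.61 without SAG GFP+ replicate 1). It was higher in SAG GFP+ than in RA GFP+ cells (2.77 ± 0.799, adjusted p = 0.0257, and 3.86 without RA GFP+ replicate 3). That call ended when RA GFP+ replicate 1 or 2 or SAG GFP+ replicate 1 was left out (adjusted p 0.0868 to 0.112, with a fold change of 1.4 without the last). In the fit of all libraries Nodal and this co-receptor thus took opposite directions between the 2 GFP+ groups. Tdgf1-ps1, a pseudogene copy that was counted separately, had log2 fold changes of -5.30 for RA GFP+ against RA GFP-, 2.27 for SAG GFP+ against RA GFP+ and -3.03 for SAG GFP+ against RA GFP-. Reads may be split between the pair. Cfc1 (Cryptic), the other EGF-CFC co-receptor, had 3.54, 1.42 and 1.87 CPM in SAG GFP+, 0.666, 0.638 and 0.105 CPM in RA GFP+ and 0.529, 0.381 and 0.457 CPM in RA GFP- libraries. It was higher in SAG GFP+ than in RA GFP+ cells (2.27 ± 0.593, adjusted p = 0.0159). Eng (endoglin), a TGF-beta co-receptor, was lower in SAG GFP+ cells than in RA GFP+ cells (-2.23 ± 0.442, adjusted p = 0.00352) and than in RA GFP- cells (-3.50 ± 0.456, adjusted p = 0.000197). The values were -3.11 and -4.38 without SAG GFP+ replicate 1. Tgfbr2 was higher in RA GFP+ than in RA GFP- cells (0.93 ± 0.278, adjusted p = 0.0411). Leaving out any 1 of the 6 RA libraries or SAG GFP+ replicate 2 ended that call (adjusted p 0.0523 to 0.177). With the replicate block in the 6 RA libraries Tgfbr2 was at 0.93 ± 0.204 (edgeR adjusted p = 0.00589). Of the 9 tested genes of this list 1 was higher and 1 lower in RA GFP+ against RA GFP- cells. The counts were 2 and 1 in SAG GFP+ against RA GFP+ cells, and 3 and 2 in SAG GFP+ against RA GFP- cells.

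Among 11 Smad effectors and nuclear partners, 3 were higher and 1 lower in RA GFP+ than in RA GFP- cells. Smad2 and Smad3, which carry the Nodal, activin and TGF-beta signal, and the co-repressor Ski were higher by 0.56 ± 0.14, 0.58 ± 0.154 and 0.58 ± 0.131 on the log2 scale (edgeR adjusted p = 0.0174, 0.0234 and 0.0102). The call of Smad2 ended when RA GFP+ replicate 1 or 2 or RA GFP- replicate 3 was left out (adjusted p 0.0566 to 0.0954). That of Smad3 ended without 1 of RA GFP+ replicates 2 and 3 and RA GFP- replicates 1 and 2 (0.0555 to 0.106), and that of Ski without RA GFP+ replicate 2 (0.0506). With the replicate block in the 6 RA libraries Smad2, Smad3 and Ski had edgeR adjusted p values of 0.000735, 0.00065 and 0.000582. Tgif1 was called there too, higher by 0.45 ± 0.087 (edgeR adjusted p = 0.00287). Foxh1 had 55.8, 38.1 and 26.2 CPM in SAG GFP+ libraries, 22.7, 19.8 and 12.3 CPM in RA GFP+ libraries and 50.4, 39.9 and 24.5 CPM in RA GFP- libraries. RA GFP+ libraries were below both other groups without overlap. Foxh1 was lower in RA GFP+ than in RA GFP- cells (-1.07 ± 0.323, adjusted p = 0.0423) and higher in SAG GFP+ than in RA GFP+ cells (1.13 ± 0.324, adjusted p = 0.0247). The first call ended when any 1 RA GFP+ library, RA GFP- replicate 1 or 2, or SAG GFP+ replicate 2 was left out (adjusted p 0.0513 to 0.159). The second ended without 1 of RA GFP+ replicates 2 and 3 and SAG GFP+ replicates 1 and 2 (0.0509 to 0.0765). With the replicate block in the 6 RA libraries the first was -1.06 ± 0.113 (edgeR adjusted p = 6.77e-05). Smad7, the inhibitory Smad induced by TGF-beta family signals, had 7.45, 8.09 and 7.90 CPM in SAG GFP+ libraries, 24.4, 16.0 and 21.3 CPM in RA GFP+ libraries and 25.8, 19.5 and 22.4 CPM in RA GFP- libraries. It was lower in SAG GFP+ cells than in RA GFP+ cells (-1.40 ± 0.195, adjusted p = 0.000382) and than in RA GFP- cells (-1.53 ± 0.196, adjusted p = 0.000173). In SAG GFP+ against RA GFP+ cells 1 of the 11 was higher and 5 were lower, and in SAG GFP+ against RA GFP- cells 2 were higher and 2 lower.

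Of 7 tested convertases and extracellular inhibitors, 3 were higher and 0 lower in RA GFP+ than in RA GFP- cells, and 1 was higher and 4 were lower in SAG GFP+ than in RA GFP+ cells. Furin, a convertase that cleaves the precursors of Nodal and TGF-beta, had 75.0, 52.8 and 53.2 CPM in SAG GFP+ libraries, 198, 164 and 131 CPM in RA GFP+ libraries and 54.4, 51.1 and 56.0 CPM in RA GFP- libraries. RA GFP+ libraries stood above both others: the log2 fold change was 1.61 ± 0.177 over RA GFP- (edgeR adjusted p = 0.000137) and -1.45 ± 0.177 for SAG GFP+ against RA GFP+ (adjusted p = 0.000158). Pcsk6, a further convertase of Nodal, was lower in SAG GFP+ cells than in RA GFP+ cells (-0.99 ± 0.169, adjusted p = 0.00146) and than in RA GFP- cells (-1.24 ± 0.17, adjusted p = 0.000289). Fst (follistatin), which binds and blocks activin, had 121, 64.1 and 68.1 CPM in SAG GFP+ libraries, 26.7, 16.9 and 18.0 CPM in RA GFP+ libraries and 21.4, 7.39 and 10.7 CPM in RA GFP- libraries. It was higher in SAG GFP+ cells than in RA GFP+ cells (2.04 ± 0.369, adjusted p = 0.00202) and than in RA GFP- cells (2.68 ± 0.38, adjusted p = 0.000364). Its relative Fstl3 was lower in both (-1.66 ± 0.32, adjusted p = 0.00304, and -2.04 ± 0.322, adjusted p = 0.000734). Fstl3 shares 47.3% of its exon bases with Prss57 on the other strand, which had 7 counts in all. Tmeff1, a membrane protein known in frog embryos to inhibit Nodal signalling, was higher in RA GFP+ than in RA GFP- cells (0.83 ± 0.103, adjusted p = 0.000301). It was lower in SAG GFP+ than in RA GFP+ cells (-0.71 ± 0.103, adjusted p = 0.000479). Dcn (decorin), a matrix protein that binds TGF-beta, was higher in RA GFP+ than in RA GFP- cells (6.89 ± 0.929, adjusted p = 0.000503, and 8.43 without RA GFP- replicate 2). Its level was 7.49, 4.57 and 11.8 CPM in RA GFP+ libraries and 0, 0.152 and 0.0381 CPM in RA GFP- libraries. Dcn was also higher in SAG GFP+ than in RA GFP- cells (5.37, edgeR adjusted p = 0.00138, and 6.91 without RA GFP- replicate 2).

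Latent TGF-beta is stored by Ltbp proteins and released by integrins. Of the 10 tested genes of storage and release, 2 were higher and 1 lower in RA GFP+ than in RA GFP- cells. There were 2 higher and 3 lower in SAG GFP+ than in RA GFP+ cells, and 2 higher and 4 lower in SAG GFP+ than in RA GFP- cells. With the replicate block in the 6 RA libraries 5 were called between the RA groups. Itgav, Ltbp1 and Thbs1 were higher in RA GFP+ cells there, and Itgb8 and Ltbp4 were lower. The integrin subunits went opposite ways. Itgav had 43.6, 51.6 and 64.5 CPM in SAG GFP+, 96.5, 100.4 and 90.2 CPM in RA GFP+ and 42.4, 42.5 and 49.9 CPM in RA GFP- libraries. Its partner Itgb8 had 78.3, 102 and 99.97 CPM in SAG GFP+, 18.5, 42.3 and 42.9 CPM in RA GFP+ and 49.99, 112.5 and 79.6 CPM in RA GFP- libraries. Itgav was higher in RA GFP+ than in RA GFP- cells (log2 fold change 1.09 ± 0.151, edgeR adjusted p = 0.000602) and lower in SAG GFP+ than in RA GFP+ cells (-0.85 ± 0.15, adjusted p = 0.00181). Itgb8 was lower in RA GFP+ than in RA GFP- cells (-1.22 ± 0.326, adjusted p = 0.0234) and higher in SAG GFP+ than in RA GFP+ cells (1.44 ± 0.328, adjusted p = 0.00804). The first of these calls ended when RA GFP+ replicate 1 or RA GFP- replicate 2 or 3 was left out (adjusted p 0.0506 to 0.101). Ltbp1 was higher in RA GFP+ than in RA GFP- cells (1.16 ± 0.225, adjusted p = 0.0045). It was also higher in SAG GFP+ than in RA GFP- cells (0.85, edgeR adjusted p = 0.0148). This second call ended when RA GFP- replicate 1 (adjusted p = 0.0524) or SAG GFP+ replicate 3 (0.0554) was left out. Lrrc32 (GARP), which anchors latent TGF-beta at the cell surface, was lower in SAG GFP+ cells than in RA GFP+ cells (-3.17 ± 0.735, adjusted p = 0.00876) and than in RA GFP- cells (-3.77 ± 0.72, adjusted p = 0.0024). It had at most 0.112 CPM in SAG GFP+ libraries, and the values were -4.35 and -4.95 without SAG GFP+ replicate 2. Thbs1 (thrombospondin 1), an activator of latent TGF-beta, was higher in SAG GFP+ than in RA GFP- cells (1.82 ± 0.281, adjusted p = 0.000634), and Ltbp4 was lower (-0.74 ± 0.168, adjusted p = 0.00668).

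Genes known to respond to Nodal or activin gave few calls in the fit of 9 libraries. Of the 6 tested, 2 were higher and 0 lower in RA GFP+ than in RA GFP- cells. With the replicate block in the 6 RA libraries 4 were called there, among them Fgf8 higher and Eomes and Lhx1 lower. In the SAG comparisons 0 were higher and 1 was lower in SAG GFP+ than in RA GFP+ cells, and 2 were higher and 0 lower in SAG GFP+ than in RA GFP- cells. Fgf8, a growth factor, was higher in RA GFP+ than in RA GFP- cells (2.08 ± 0.632, adjusted p = 0.0425). Leaving out RA GFP+ replicate 1 or RA GFP- replicate 2 or 3 ended that call (adjusted p 0.118 to 0.163), and the fold change was 2.97 without RA GFP- replicate 1. With the replicate block in the 6 RA libraries it was 2.19 ± 0.232 (edgeR adjusted p = 6.18e-05). Fgf8 was also higher in SAG GFP+ than in RA GFP- cells (1.96 ± 0.631, adjusted p = 0.0378). This call ended without SAG GFP+ replicate 1 or 1 of RA GFP- replicates 2 and 3 (0.0998 to 0.143), and the fold change was 1.14 without the SAG library and 2.85 without RA GFP- replicate 1. Eomes, a mesendoderm transcription factor, had 8.92, 1.20 and 0.856 CPM in SAG GFP+, 3.14, 3.29 and 2.34 CPM in RA GFP+ and 10.4, 7.35 and 6.21 CPM in RA GFP- libraries. It had no call between the RA groups in the fit of 9 libraries and -1.44 ± 0.218 with the replicate block (edgeR adjusted p = 0.000677). Gsc (goosecoid) passed the test in SAG GFP+ against RA GFP- cells (2.94 ± 0.939, adjusted p = 0.0361), although these groups overlapped. The call ended without 1 of SAG GFP+ replicates 1 and 2 and RA GFP- replicates 1 and 2, and with the replicate block in 9 libraries (adjusted p 0.0606 to 0.143). The fold change was 1.87 without SAG GFP+ replicate 1 and 3.58 without RA GFP- replicate 3.

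Genes known to respond to TGF-beta fell in SAG GFP+ cells where they were called. Of the 10 tested, 4 were lower and 0 higher in SAG GFP+ than in RA GFP+ cells, and likewise 4 and 0 against RA GFP- cells. In RA GFP+ against RA GFP- cells 2 were higher and 0 lower. With the replicate block in the 6 RA libraries 6 were called there, among them Cyr61 and Tagln higher and Ctgf lower. Ctgf, a matrix-associated growth factor, had 10.4, 5.51 and 8.25 CPM in SAG GFP+ libraries, 45.9, 35.5 and 44.8 CPM in RA GFP+ libraries and 50.6, 51.1 and 55.5 CPM in RA GFP- libraries. All SAG GFP+ libraries were below all RA libraries. Its log2 fold change was -2.38 ± 0.214 for SAG GFP+ against RA GFP+ (edgeR adjusted p = 2.17e-05) and -2.70 ± 0.216 against RA GFP- (adjusted p = 7.19e-06). Tagln (transgelin), an actin-binding protein, had 0.693, 0.599 and 0.506 CPM in SAG GFP+ libraries, 51.6, 36.3 and 27.9 CPM in RA GFP+ libraries and 9.81, 8.15 and 3.05 CPM in RA GFP- libraries. It was lower in SAG GFP+ than in RA GFP+ cells (-6.00 ± 0.466, adjusted p = 8.24e-06) and higher in RA GFP+ than in RA GFP- cells (2.46 ± 0.371, adjusted p = 0.00102). Antisense genes overlap 62.4% of Tagln exon bases (Gm48529, 330 counts in all against 3816 for Tagln) and 23.2% of Ctgf exon bases (Gm15270, 88 against 8357). Cyr61 was called higher in RA GFP+ than in RA GFP- cells (0.61 ± 0.188, adjusted p = 0.046). That call ended without any 1 of the 6 RA libraries or SAG GFP+ replicate 3 and under 3 other settings (adjusted p 0.0508 to 0.15). With the replicate block in the 6 RA libraries it was 0.61 ± 0.141 (edgeR adjusted p = 0.00757).

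**Figure D5:**
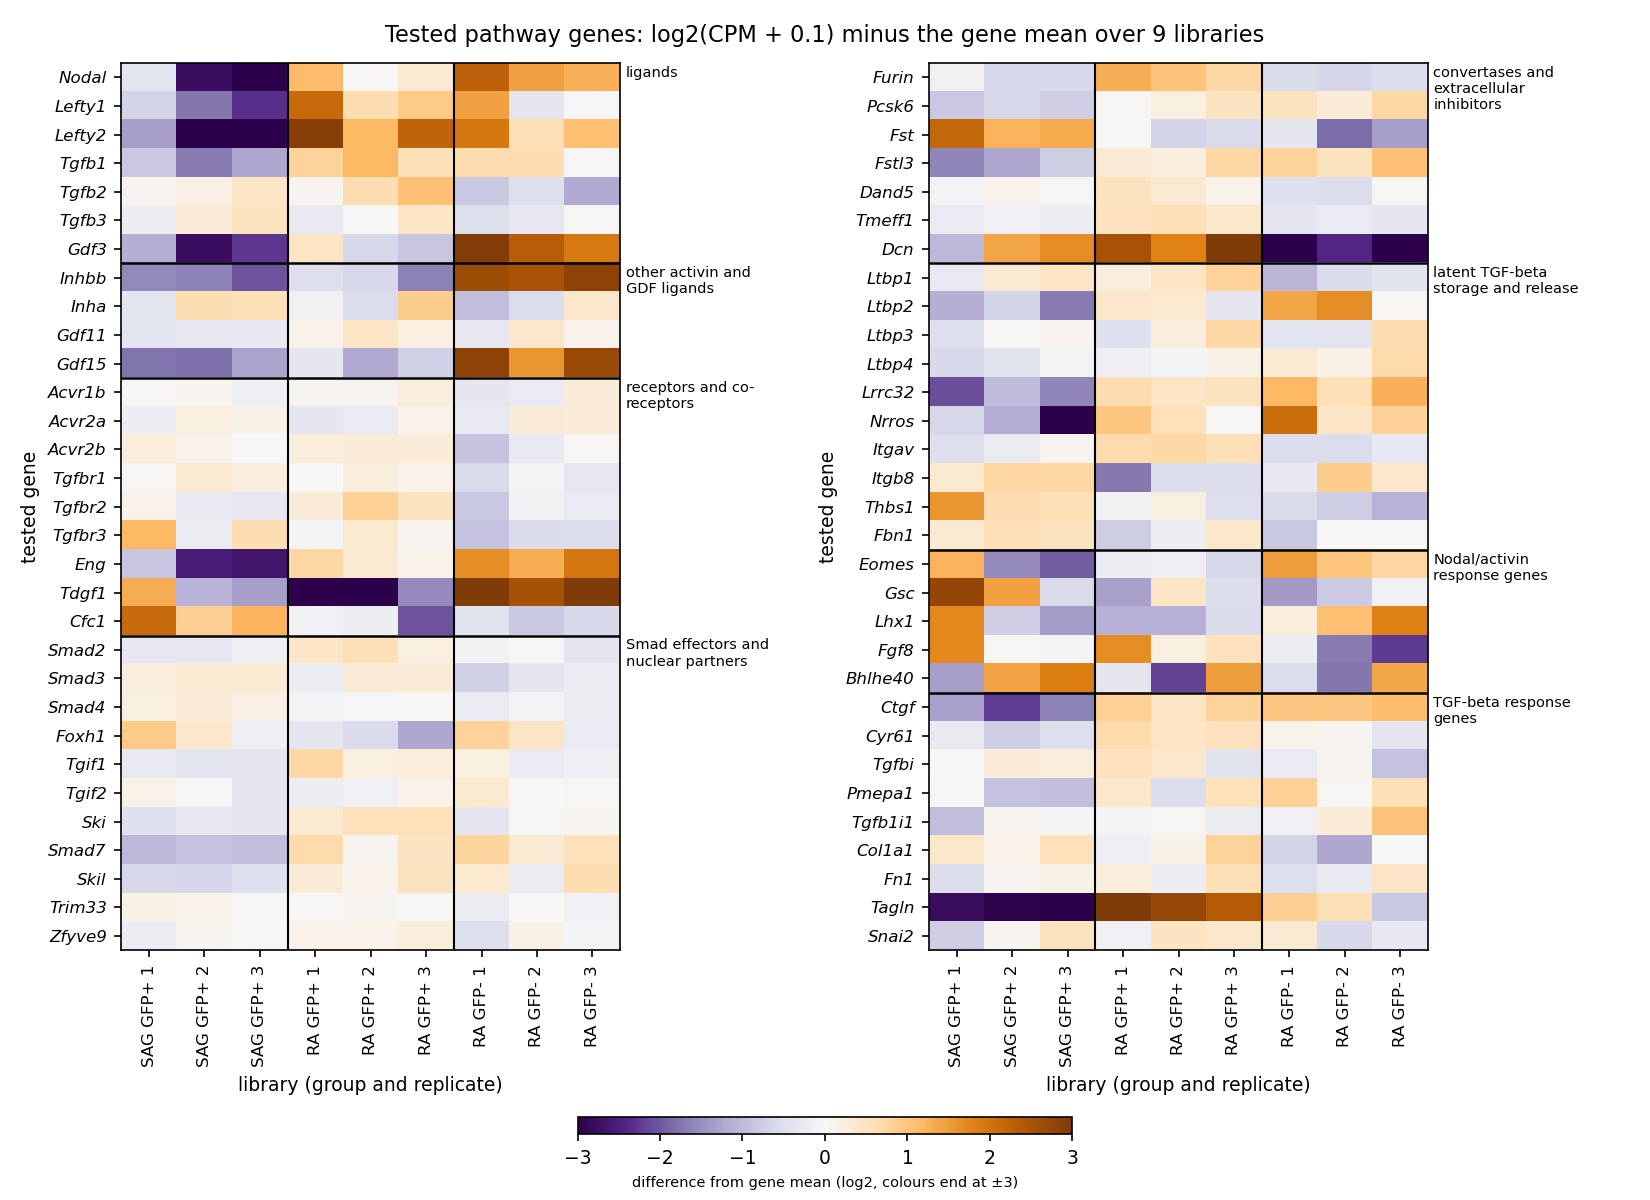
Log2(CPM + 0.1) of the 7 tested ligand genes and of other tested pathway genes, minus the gene's mean over the 9 libraries (colours end at ±3), with SAG GFP+ libraries left, RA GFP+ in the middle and RA GFP- right. The ligand block is purple (low) in SAG GFP+ libraries for Nodal, Lefty1, Lefty2, Tgfb1 and Gdf3, and the same libraries are low for Eng, Smad7, Ctgf and Tagln and high for Fst.

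SAG GFP+ replicate 1 was the highest of its group for Nodal (5.55-fold over the higher of the other SAG GFP+ libraries), Lefty2 (4.81-fold), Gdf3 (2.26-fold) and Lefty1 (2.12-fold). The same held for Tdgf1 (5.47-fold), Eomes (7.44-fold), Lhx1 (5.77-fold) and Pou5f1 (4.34-fold). It was not the highest for Tgfb2 (0.751-fold) or Tgfb3 (0.616-fold). The excess of Nodal-related RNA in this library came with that of the mesoderm and pluripotency genes T, Mixl1 and Pou5f1, and the part of such cells was not tested. Among the 16772 tested genes, those most like each ligand over the 9 libraries by Pearson correlation of log2 CPM (prior count 2) were Rhox13 for Nodal (r = 0.991), Erp29 for Lefty1 (0.994), Bloc1s4 for Lefty2 (0.979), Zfp988 for Gdf3 (0.995), Kcnk6 for Tgfb1 (0.985), Lacc1 for Tgfb2 (0.971) and Lurap1 for Tgfb3 (0.992). These values describe 9 libraries in 3 groups, in which all genes share the depth and cell make-up of a library.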

How the data were processed

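RNA from 9 libraries was sequenced after a directional poly(A) library preparation, per the labels' protocols. The authors deposited raw counts per gene, and the submitters' processing notes name Trim Galore 0.5.0, Bowtie2 2.3.4.1, featureCounts and Subread 1.6.2 with build GRCm38. Neither strand setting nor gene annotation version nor the handling of multiply mapping reads is named in the sources used here. Replicate numbers come from the labels, and the text on origin says no more than biological replicate.

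Of 54532 genes, 54495 had a symbol by gene ID, 24114 had 0 counts in all libraries and 16772 passed filterByExpr with a minimum count of 10. One edgeR 4.0.16 quasi-likelihood fit (R 4.3.3, limma 3.58.1) with TMM factors of 0.972 to 1.029 and 3 group means gave all comparisons, with Benjamini-Hochberg adjustment over all tested genes and a call at an adjusted p under 0.05. The biological coefficient of variation was 0.226, and the fit was tested on simulated data with 200 changed genes. SE is the absolute log2 fold change over the square root of F. CPM are counts over the TMM-scaled library, and per-kilobase levels divide by the union of exon bases (GENCODE M21, GRCm38). Library totals of 25281871 to 29763765 counts set the precision, and 3 counts over a group are 0.039 CPM in SAG GFP+, 0.0357 CPM in RA GFP+ and 0.0371 CPM in RA GFP- cells. Intervals and such floors cover counting error only. Ratios within a library were compared by an exact two-sided permutation test.

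Same-numbered RA libraries deviated together from their group means (r = 0.273, 0.307 and 0.347 across genes), so the replicate number was taken to pair them. Same-numbered SAG and RA libraries gave mixed values across genes (r = -0.082 to 0.242), so they were not taken as paired. For Nodal, Lefty1, Lefty2 and Gdf3, however, replicate 1 was the highest library in 3 of 3 groups. The genes and lists were chosen with earlier results of these data known. Named were all 8 ligands, Foxa2, in each pathway list and comparison the 3 called genes with the smallest adjusted p, leading markers, and the genes most correlated with each ligand. Some genes of the pathway lists enter the counts but are not reported here by name. Alternatives were DESeq2 1.42.0, relative log expression factors, no low-count filter, a minimum count of 20, a fit of the compared groups alone, a replicate block, and leaving out each library.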

Additional observations from a re-analysis of the deposited data

How the results depend on the processing

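Of 1498 values of single genes under 16 alternative settings, 1395 kept both direction and call, 93 lost the call, 10 gained one and 0 changed direction. With the replicate block, that is, pairing libraries by number, the genes called between RA GFP+ and RA GFP- cells numbered 5240 in the 6 RA libraries, against 2838 without it. Ligand genes called there numbered 4 with the block in 9 libraries, 5 with the block in the 6 RA libraries and 5 with no low-count filter, against 2. All genes called numbered 3811 with the block in 9 libraries and 3607 with no filter, where every gene with any count was tested. Pathway genes called there numbered 28 with the block in 9 libraries and 32 with it in 6, against 18. Leaving out 1 library gave 1783 to 3368 genes, 2 to 3 ligand genes and 12 to 26 pathway genes in this comparison, with the lowest count of genes without RA GFP+ replicate 2. For SAG GFP+ against RA GFP+ it gave 3 to 5 ligand genes, with 3 without RA GFP+ replicate 1 or SAG GFP+ replicate 2 or 3. All genes called there numbered 2834, 2822 and 3094 in these 3 settings, against 4117 with every library. In the SAG comparisons, where the libraries were not taken as paired, the block ended 1 call, that of Gsc against RA GFP- (adjusted p = 0.0688). The causes were not tested. Genes of a few counts, such as Inhba, are limited by depth, and all differences between media rest on 3 libraries a group from 1 cell line.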
